A study of Mus musculus with 10 samples.

Results

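The potassium channel subunit genes were taken as every gene symbol of the deposited table that begins with Kcn, one letter from a to v and a subunit number, also where further letters stand before the number, with Kcnj10 left out. The rule gave 89 of the 20045 symbols (120 of 25152 gene entries). They were followed in chromatin of mouse retina at E17.5 (embryonic day), PN1, PN7 and PN15 (postnatal days), in which H3K4me2 or H3K27me3 had been immunoprecipitated and the DNA sequenced (ChIP-Seq). There was 1 library for each of the 2 marks at each of the 4 stages, made from at least 20 pooled retinas per stage according to the labels. Of the 10 samples of the series, the H3K4me2 library of rd1/rd1 retinas at PN30 and the anti-GFP control at PN56 have no column in the table and were not analysed here. The sample labels write Pde6b (rd1/rd1), a mutation that kills rods, as the strain of every library, whereas their protocol text gives the mutant a role as a control without rods and the study, whose methods also name C57BL/6j mice, describes the developmental stages as wild type. Which mice gave the 8 libraries is thus not settled by the labels, and the libraries are called here by mark and stage alone. The labels write E17 for the stage that their protocol text calls E17.5. No library had a replicate, so no test between stages was possible and none of the differences below has a replicate check.

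Potassium channels let potassium leave or enter a cell down its gradient and thereby set the resting potential, end action potentials and shape the graded light responses of retinal cells. Voltage-gated channels are tetramers of pore-forming subunits, which can be joined by modifier subunits that form no channel alone. Inward rectifiers and two-pore leak channels hold the membrane near rest, and calcium-activated channels couple calcium entry to repolarisation. Auxiliary subunits bind these pores and change their gating or traffic. H3K4me2 is found around the transcription start site (TSS) of active and poised genes, and H3K27me3, the mark of Polycomb repressive complex 2, at repressed ones. Promoters of developmental and neuronal genes often carry both in progenitor cells, and such promoters are called bivalent.

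The values are normalized occupancies, that is, the reads within 2.5 kb of a TSS scaled by the authors to each library's total of mapped reads and given as whole numbers. In every library each whole number from 0 to at least 109 occurred, so 1 read cannot be worth much more than 1 unit. Intervals given below are exact Poisson 95% intervals that take 1 unit as 1 read, and they cover counting error only. A mark was taken as present where the value was above percentile 95 of 1345 olfactory and vomeronasal receptor symbols in the same library. This background limit was 5, 8, 1 and 7 for H3K4me2 and 19.8, 20, 20 and 27 for H3K27me3 at E17.5, PN1, PN7 and PN15. The H3K4me2 library of PN7 stood apart from the others, with a median of 0 over these receptors, against 2 to 4 in the other H3K4me2 libraries. The median log2 change of all symbols, with 1 added to each value, was -0.42, -0.50 and 1.0 over the 3 steps of H3K4me2 and 0.13 from E17.5 to PN15, and log2 changes are therefore given relative to that median. For H3K27me3 the medians were 0.00, -0.16, 0.00 and 0.00 in the same order. The H3K27me3 library of PN15 stood apart too, with a receptor median of 10, against 5 to 7 in the other H3K27me3 libraries. The highest value in it was 416, against 766 to 1125 in the others. The tissue label was checked against defining genes. Each of the 6 rod genes looked at, such as Nrl and Crx, was above the H3K4me2 limit at PN15, and their summed H3K4me2 was 96, 103, 117 and 585 at the 4 stages in order. The 3 genes of the retinal pigment epithelium in the table (Rpe65, Tyr and Best1) summed to 6, 10, 0 and 11, and the 3 endothelial genes (Pecam1, Cldn5 and Cdh5) to 64, 39, 34 and 17. The sums were 35, 38, 24 and 15 over 3 lens genes and 39, 43, 11 and 22 over 3 erythroid genes. In whole retina, fewer cells of a type and less of a mark per cell cannot be told apart.

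Most potassium channel promoters carried both marks. At E17.5 the count was 63 of 89 (70.8%), against 23.1% of all symbols, with 62 (69.7%) each at PN1 and PN7. At PN15 it came to 51 (57.3%), when 15.7% of all symbols had both. H3K4me2 alone was found at 14 members (15.7%) at E17.5 and at 24 (27%) at PN15, while 51.3% and 55.2% of all symbols had it at these stages. H3K27me3 alone was found at 5 members (5.62%, against 3.41% of all symbols) at E17.5 and 4 (4.49%, against 4.63%) at PN15. Neither mark was found at 7 (7.87%, against 22.2% of all symbols) and 10 (11.2%, against 24.4%). Both marks thus passed their limits within 2.5 kb of a TSS more often in the channel genes than in the table as a whole. No test was available for this description. The marks come from separate libraries of whole retina, so whether they lie in the same cells was not tested. Among related genes, both marks were found at 12 of 20 pore subunits of calcium and sodium channels and 12 of 17 potassium channel partners at E17.5.
Of the 63 members with both marks at E17.5, 50 had both again at PN15. Of all symbols, 23.1% had both at E17.5. Both at E17.5 and again at PN15 were found in 13.7% of all symbols, while 7.12% kept only H3K4me2 and 1.78% only H3K27me3. The 12 members that kept only H3K4me2 above its limit included Kcna5, Kcnab2, Kcnab3, Kcne1l, Kcng4, Kcnh7, Kcnj11, Kcnj2, Kcnj9 and Kcnk1, and Kcnq1 kept only H3K27me3. Of these 12, 7 (Kcna5, Kcne1l, Kcnh7, Kcnj11, Kcnj2, Kcnj9 and Kcnk1) still had more H3K27me3 at PN15 than the E17.5 limit of 19.8 and changed class only because the limit was 27 at PN15. Kcna5 had 25, 25, 16 and 25, Kcnk1 had 21, 15, 15 and 26 and Kcnj11, which encodes the pore of the ATP-sensitive channel, had 27, 27, 15 and 26. The lower share with both marks at PN15 thus rests in part on that limit. Both marks were present at all 4 stages in 48 members (53.9%, against 12.6% of all symbols), and H3K4me2 alone at all 4 stages in Kcnd1, Kcnip4, Kcnn1, Kcnt2 and Kcnv2 (5.62%, against 42.9%). The H3K4me2 limit at PN7 was only 1, so any value above that counted as present there.

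**Figure D1:**
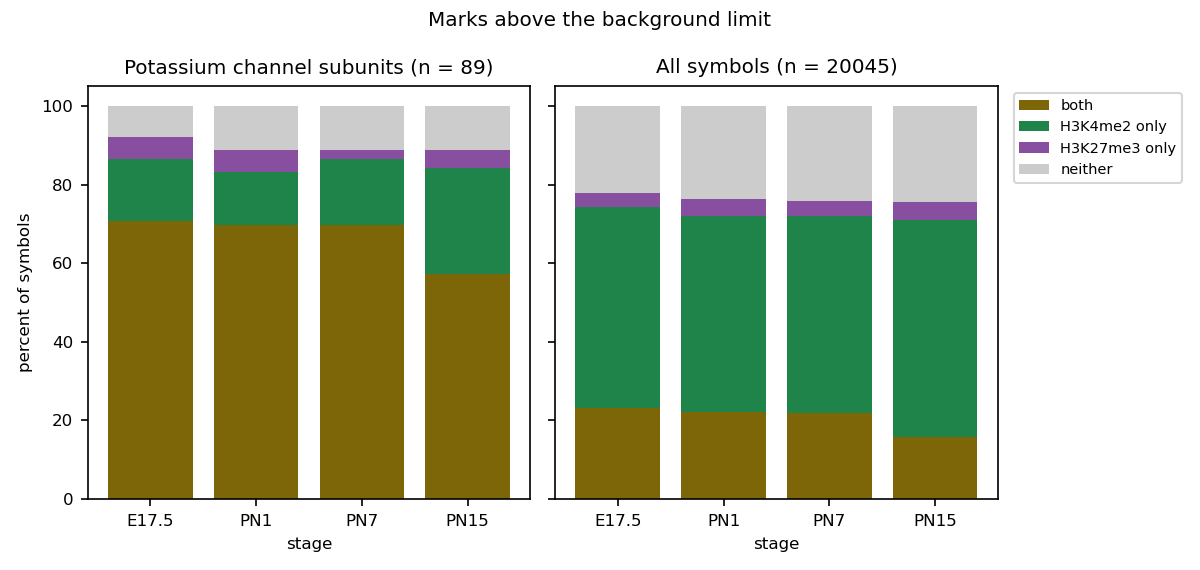
Percent of the 89 potassium channel subunit symbols (left) and of all 20045 symbols (right) with both marks, 1 mark or neither above the background limit at each stage, 1 library per mark and stage. Both were found at 70.8% of the members at E17.5 and 57.3% at PN15, against 23.1% and 15.7% of all symbols.

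Many of the members with much H3K27me3 before birth had less of it at PN15. The median value over the members was 43, 60, 62 and 45 at the 4 stages, with quartiles of 20 and 211 at E17.5 and of 24 and 90 at PN15, whereas the median over all symbols was 10 or 11 at E17.5, PN1 and PN15 and 9 at PN7. The highest member value went from 533 (Kcnip3) at E17.5 to 196 (Kcnk15) at PN15. A change was called where it was at least 2-fold on the log2(value + 1) scale relative to all symbols and the larger value was above its background limit. Calls below are between E17.5 and PN15 unless another step is named. By this rule 27 members (30.3%) were lower in H3K27me3 at PN15 than at E17.5, against 8.96% of all symbols, and 4 (4.49%) were higher, against 3.08%. The median change of the members was -0.42, with 53 of 89 below the median of all symbols, although the median value was nearly the same at both stages. Strongly marked symbols in general were lower at PN15. Among symbols whose E17.5 and PN15 values averaged at least 50, the median change was -0.91 over 2517 symbols and -1.02 over the 44 members in that range, and 45.2% and 50% of them, respectively, were at least 2-fold lower.
H3K4me2 moved less and in both directions. Its median over the members was 32, 22, 25 and 29, below the 41, 27, 24 and 42 of all symbols at 3 of the 4 stages. From E17.5 to PN15, 7 members (7.87%) were called higher, against 3.26% of all symbols, and 13 (14.6%) lower, against 8.03%, with a median change of -0.18. The count of 13 was 7 without centring, 7 where the intervals had to be apart and 8 with a pseudocount of 5.

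**Figure D2:**
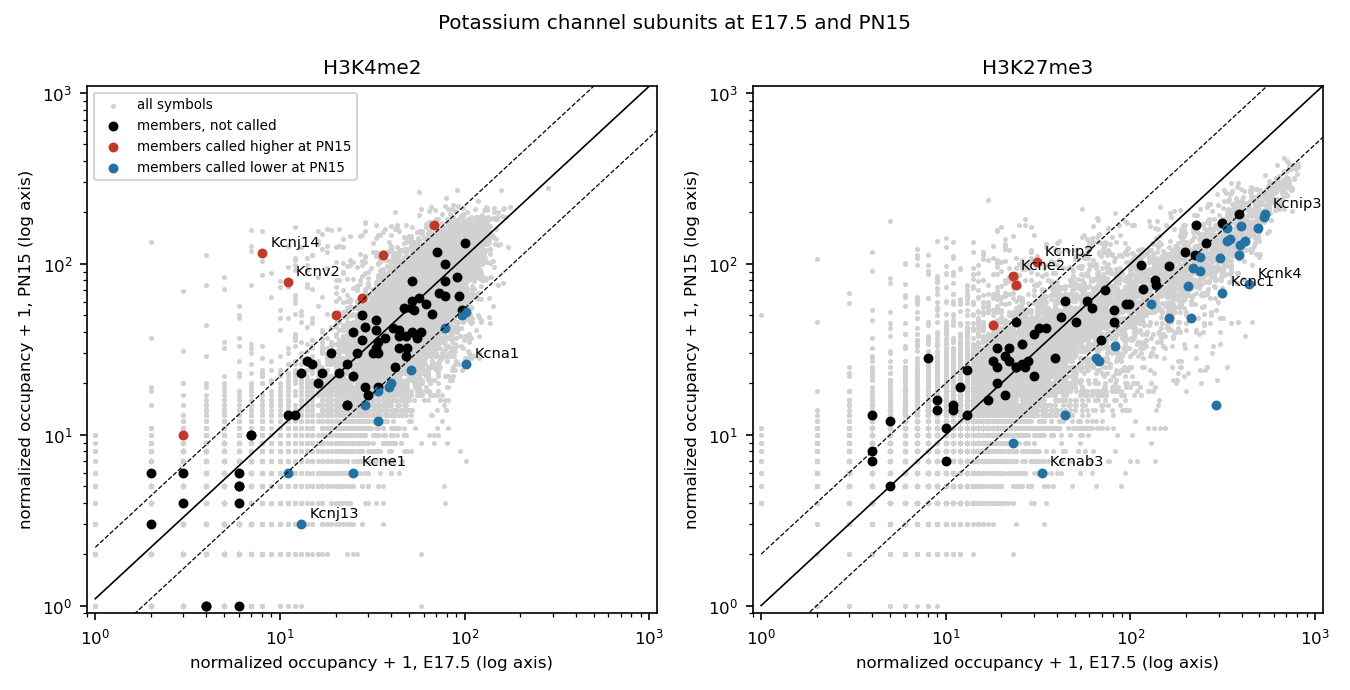
Normalized occupancy plus 1 at E17.5 (x axis) and PN15 (y axis), both log axes, for H3K4me2 (left) and H3K27me3 (right). Grey points are all symbols and larger points the 89 members, the solid line is the median change of all symbols and the dashed lines are 2-fold from it. Kcnj14 and Kcnv2 stand above the lines in H3K4me2, and 27 members lie below them in H3K27me3, Kcnk4 and Kcnab3 among them.

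Among the 17 pore-forming subunits of voltage-gated channels, the Kv3 family (Kcnc), whose fast closing allows cells to fire at high rates, did not move in 1 direction.
Kcnc1 (Kv3.1; mm9 chromosome 7, 53651867 to 53693745, plus strand) gained H3K4me2 and lost much of its H3K27me3. Its H3K27me3 values were 314, 402, 142 and 67, with an interval of 51.9 to 85.1 at PN15 that is above the limit of 27. Its H3K4me2 was 27, 21, 59 and 62 and the relative changes were -2.21 and 1.04. The latter lies close to the 2-fold limit and was not called with a pseudocount of 5 (0.94). Kcnc4 (Kv3.4) had H3K27me3 of 416, 427, 331 and 135, a relative change of -1.62, with H3K4me2 of 51, 27, 64 and 39, which was not called.
Kcnc2 (Kv3.2; chromosome 10, 111708179 to 111903360, plus strand) went against Kcnc1. Its H3K4me2 fell, with 96, 50, 80 and 49, and its H3K27me3 rose, with 17, 13, 36 and 43. The intervals at E17.5 and PN15 did not overlap for H3K4me2 (77.8 to 117 and 36.3 to 64.8) or for H3K27me3 (9.90 to 27.2 and 31.1 to 57.9). It was the only member called lower in H3K4me2 and higher in H3K27me3 by this rule, with relative changes of -1.09 and 1.29, and the former lies close to the 2-fold limit.

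The promoters of Kcnc1 and Kcnc2 are shown since these relatives moved in opposite directions. The sequences are from RefSeq (its GRCm38.p6 table) and run from 250 bases before to 50 after an annotated start. Each was found once in mm9, at chr7:53651588-53651887 (plus strand) and chr10:111706823-111707122 (plus strand), and CpG dinucleotides are in capitals. RefSeq has 3 more Kcnc2 starts within 1256 bases downstream of the one shown.
Kcnc1: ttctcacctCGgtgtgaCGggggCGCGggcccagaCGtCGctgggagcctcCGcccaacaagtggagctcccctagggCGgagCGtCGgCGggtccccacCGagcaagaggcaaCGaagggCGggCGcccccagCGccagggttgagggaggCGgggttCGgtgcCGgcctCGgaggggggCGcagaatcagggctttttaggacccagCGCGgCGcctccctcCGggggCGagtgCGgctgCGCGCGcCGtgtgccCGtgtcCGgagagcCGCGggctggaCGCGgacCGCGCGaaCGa
Kcnc2: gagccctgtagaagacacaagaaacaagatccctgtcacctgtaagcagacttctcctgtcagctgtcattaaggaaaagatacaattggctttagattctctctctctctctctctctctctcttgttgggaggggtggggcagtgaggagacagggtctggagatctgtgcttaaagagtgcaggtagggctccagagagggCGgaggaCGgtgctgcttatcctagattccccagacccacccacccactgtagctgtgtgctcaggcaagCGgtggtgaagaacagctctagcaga
The Kcnc1 promoter holds 41 CpG and the Kcnc2 promoter shown 3, with 5, 5 and 6 in its other promoters, where the median of 32851 promoters of the same length was 7. Only 65 of the 89 members (73.0%) had a promoter in the table, so a comparison of CpG or motif content over the members is void. The letters TAATCC, the core of the Crx and Otx2 motif, occur on either strand of 7.06% of all promoters and of none of those printed here.

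The Kv1 genes with a call between E17.5 and PN15 were lower at PN15, in 1 mark or the other. Kcna1 (Kv1.1; chromosome 6, 126586481 to 126595819, minus strand), an axonal channel, had the most H3K4me2 of any member at E17.5, together with Kcnj3, and fell from there, with 101, 49, 76 and 25, intervals of 82.3 to 123 and 16.2 to 36.9, and a relative change of -2.11. Its H3K27me3 of 225, 325, 280 and 168 was high at every stage and was not called. Kcna2 (Kv1.2), which joins Kcna1 in axonal channels, had H3K4me2 of 77, 44, 89 and 41 and was just past the limit, with -1.03. Kcna7 (Kv1.7) fell in H3K27me3, 384, 435, 245 and 112, and had H3K4me2 of 13, 13, 15 and 26, a relative change of 0.81 that was not called. Kcna6 (Kv1.6) fell in H3K27me3 too, with 128, 125, 125 and 57.
The Kv4 genes (Kcnd) encode the A-type channels that delay firing. Kcnd3 (Kv4.3; chromosome 3, 105255248 to 105476920, plus strand) had more H3K27me3 at each stage than at the one before, with 23, 39, 55 and 74, was called higher over the whole span, and had H3K4me2 of 77, 48, 57 and 64. The H3K27me3 intervals of Kcnd3 at the first stage, 14.6 to 34.5, and the last, 58.1 to 92.9, lay apart. Kcnd2 (Kv4.2) had 18, 22, 42 and 19 for H3K27me3, highest at PN7, and 56, 44, 80 and 62 for H3K4me2, and neither was called between E17.5 and PN15. In all, 3 of the 17 pore-forming genes were higher and 3 lower in H3K4me2 at PN15 (3.26% and 8.03% of all symbols), and 2 were higher and 6 lower in H3K27me3 (3.08% and 8.96%).

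**Figure D3:**
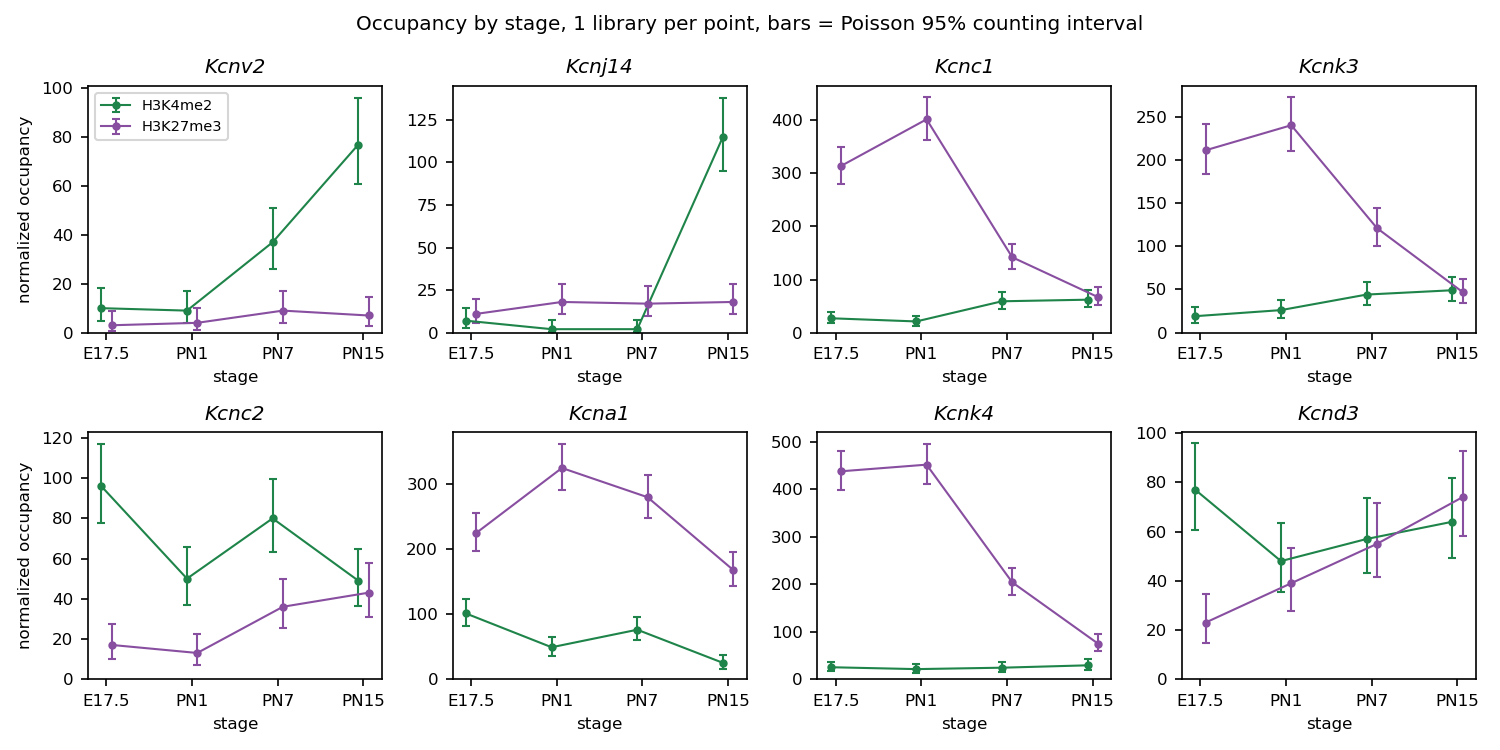
Normalized occupancy (y axis) of H3K4me2 (green) and H3K27me3 (purple) by stage (x axis) for 8 members, 1 library per point, with Poisson 95% counting intervals as bars. Kcnv2 and Kcnj14 gained H3K4me2 with H3K27me3 between 3 and 18 throughout, whereas Kcnc1 and Kcnk3 gained it as H3K27me3 fell, Kcnc2 and Kcna1 lost H3K4me2, Kcnk4 lost H3K27me3 and Kcnd3 gained it.

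Of the 9 modifier subunits, Kcnv2 (Kv8.2; chromosome 19, 27397078 to 27411669, plus strand) stood out. This subunit joins pore-forming subunits in photoreceptors, and human mutations in it cause a cone dystrophy with supernormal rod responses. H3K4me2 at Kcnv2 was 10, 9, 37 and 77, and the intervals at E17.5, PN7 and PN15 (4.80 to 18.4, 26.1 to 51.0 and 60.8 to 96.2) did not overlap. It was already called higher at PN7 than at PN1. H3K27me3 was 3, 4, 9 and 7, below the limit at each stage. The relative change in H3K4me2 was 2.69, and the summed H3K4me2 of the 6 rod genes also rose, from 96 to 585. The part of rods in this change was not tested.
Kcns3 and Kcng3, both electrically silent alone, were called lower in H3K4me2, with 38, 28, 48 and 18 and 39, 29, 20 and 19, but for each the intervals at E17.5 and PN15 overlapped. Kcns1 was the only modifier of the 9 called lower in H3K27me3 (8.96% of all symbols), with 344, 436, 353 and 138. Kcng4 (Kv6.4) had H3K4me2 of 14, 10, 4 and 25 and H3K27me3 of 20, 26, 23 and 16, with no call from E17.5 to PN15. Its H3K4me2 was called higher at PN15 than at PN7. Kcnf1 and Kcnv1 had both marks at all 4 stages and no call from E17.5 to PN15.

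The 14 inward rectifiers, of which 2 were called higher and 3 lower in H3K4me2 (3.26% and 8.03% of all symbols) and 4 lower in H3K27me3 (8.96%), held the largest gain of H3K4me2 among the members. Kcnj14 (Kir2.4; chromosome 7, 53071837 to 53080117, minus strand) had 7, 2, 2 and 115. The PN15 interval, 94.9 to 138, lay far above that at PN7, 0.242 to 7.22, for a relative change from E17.5 of 3.72. Occupancy was thus at or near the background limit at the first 3 stages and among the highest of the members at the fourth. H3K27me3 was 11, 18, 17 and 18, below its limit throughout. Kcnv2 and Kcnj14 had in common a gain of H3K4me2 without H3K27me3 above the limit, but at PN7 Kcnv2 had 37 and Kcnj14 had 2.
Kcnj3, Kcnj6, Kcnj9 and Kcnj5 encode the G protein-gated channels through which transmitters such as GABA and acetylcholine slow neurons. Kcnj3 fell in H3K4me2, with 101, 58, 78 and 51, intervals of 82.3 to 123 and 38.0 to 67.1, and H3K27me3 of 41, 67, 58 and 48. Its H3K4me2 call was lost without centring (-0.97). The other 3 fell in H3K27me3. Kcnj6 had 160, 161, 132 and 47, Kcnj9 had 67, 61, 37 and 26 and Kcnj5 had 334, 352, 272 and 161, with relative changes of -1.75, -1.33 and -1.05. Kcnj2 (Kir2.1) fell as well, with 64, 65, 56 and 27, and its H3K4me2 was 90, 57, 52 and 83, with no call.
Kcnj8 (Kir6.1), the pore of the ATP-sensitive channel of vessels, fell in H3K4me2, 50, 34, 36 and 23, as the summed H3K4me2 of the 3 endothelial genes went from 64 to 17, and its H3K27me3 was 256, 297, 234 and 131. The part of vascular cells in this was not tested. Kcnj13 (Kir7.1; chromosome 1, 89282938 to 89291304, minus strand), a channel of the retinal pigment epithelium, had H3K4me2 of 12, 2, 0 and 2 and H3K27me3 of 4, 1, 9 and 4. It was called lower in H3K4me2, but the intervals of 6.20 to 21.0 and 0.242 to 7.22 overlapped. Kcnj1 (ROMK, a kidney channel) was called higher from 2 to 9 and its intervals overlapped too. The Kcnj13 promoter, at chr1:89291255-89291554 (minus strand) in mm9, is shown as that of a gene near background in both marks. It holds 5 CpG (capitals).
Kcnj13: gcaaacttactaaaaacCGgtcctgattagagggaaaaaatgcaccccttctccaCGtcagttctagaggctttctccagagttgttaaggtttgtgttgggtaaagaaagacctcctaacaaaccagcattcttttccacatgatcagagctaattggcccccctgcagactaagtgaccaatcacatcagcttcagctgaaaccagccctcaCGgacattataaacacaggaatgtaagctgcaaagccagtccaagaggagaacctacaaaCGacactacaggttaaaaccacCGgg

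The 13 two-pore leak channels, which carry the background current that keeps cells negative, had the highest median H3K27me3 of the groups at E17.5, 204, and 6 of them were lower at PN15, when the median was 69. Of all symbols 8.96% were called lower, and of those averaging at least 50 over both stages 45.2% were at least 2-fold lower. Kcnk4 (TRAAK; chromosome 19, 7000200 to 7009005, minus strand), which opens on membrane stretch, had H3K27me3 of 438, 452, 204 and 75, with a relative change of -2.53, while H3K4me2 was 25, 21, 24 and 29 with no call. Kcnk9 (TASK-3) was alike, with H3K27me3 of 487, 520, 398 and 161 and H3K4me2 between 3 and 12. Kcnk3 (TASK-1; chromosome 5, 30890543 to 30927643, plus strand), the acid-sensitive relative of Kcnk9, gained H3K4me2 as well. Its values were 19, 26, 44 and 49 for H3K4me2 and 211, 240, 121 and 47 for H3K27me3, with relative changes of 1.19 and -2.14. Kcnk3 and Kcnk9 both lost H3K27me3, and only Kcnk3 of the 13 was called higher in H3K4me2 (3.26% of all symbols). Kcnk6, Kcnk12 and Kcnk13 were the other members of the group lower in H3K27me3, with 204, 395 and 236 at E17.5 and 73, 165 and 109 at PN15. Kcnk10 (TREK-2) was called lower in H3K4me2 with 33, 20, 12 and 17, and the intervals at E17.5 and PN15 overlapped. Kcnk2 (TREK-1) had H3K27me3 of 31, 33, 62 and 41, with the highest value at PN7, and no call from E17.5 to PN15. Kcnk15 was the member with the most H3K27me3 at PN15, 387, 434, 412 and 196 over the 4 stages, with H3K4me2 of 6, 10, 4 and 9.

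The 8 ether-a-go-go genes (Kcnh) had no call in H3K4me2 between E17.5 and PN15, where 3.26% of all symbols were called higher and 8.03% lower. Kcnh3, a brain channel, had among the highest H3K27me3 of the members, 527, 621, 418 and 188, and Kcnh4 had 217, 214, 191 and 93. These 2 of the 8 were called lower, against 8.96% of all symbols. Kcnh1 had 137, 120, 120 and 74 and missed the 2-fold limit. Kcnh2, the channel whose loss prolongs the cardiac action potential, differed from these in having little H3K27me3, 8, 23, 15 and 13, and H3K4me2 of 72, 46, 67 and 67.
All 5 KCNQ genes were above the H3K27me3 limit at E17.5 and at PN15. Of all symbols, 23.1% had both marks and 3.41% H3K27me3 alone at E17.5, with 15.7% and 4.63% at PN15. Kcnq3, a subunit of the M-current that restrains repeated firing, had H3K27me3 of 97, 115, 88 and 57 and was not called. Kcnq5 had 61, 80, 90 and 54 with H3K4me2 of 51, 38, 69 and 60 and was not called in either mark between E17.5 and PN15. Kcnq1 (chromosome 7, 150293159 to 150612955, plus strand), a channel of heart and secretory epithelia, was called lower in both marks, with H3K27me3 of 334, 398, 293 and 136 and H3K4me2 of 10, 14, 6 and 5, the latter with overlapping intervals.

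Among the 8 calcium- or sodium-activated channels none was called in H3K4me2 from E17.5 to PN15 (3.26% of all symbols were higher and 8.03% lower). Kcnn2 (SK2), which follows bursts of calcium entry with a slow hyperpolarisation, had high H3K4me2 throughout, 100, 57, 130 and 132, and its H3K27me3 fell from 82 through 95 and 66 to 32. Kcnt1, a sodium-activated channel, was the other one of the 8 called lower in H3K27me3 (8.96% of all symbols), with 236, 239, 193 and 90. Kcnma1 (BK), the large-conductance channel, had H3K4me2 of 47, 27, 64 and 37 and H3K27me3 of 116, 117, 144 and 70, both highest at PN7, with no call between E17.5 and PN15. Kcnu1, the channel of sperm, had H3K4me2 of 1, 7, 0 and 5 and H3K27me3 of 18, 16, 13 and 24, with no value above a limit. An annotated TSS of Ash2l lies 1929 bases from an annotated TSS of Kcnu1. The deposited table names no transcript, so whether part of the Kcnu1 window is shared is not known.
The 15 auxiliary genes held 2 of the 4 members called higher in H3K27me3 (3.08% of all symbols), and 4 of the 15 were called lower (8.96%). Kcne2, a single-pass subunit that modifies KCNQ and ether-a-go-go channels, had 22, 36, 43 and 84, and its intervals at the first and last stage, 13.8 to 33.3 and 67.0 to 104, lay apart. Kcnip2, a calcium-binding partner of the Kv4 pores, had 30, 45, 87 and 101, with 20.2 to 42.8 and 82.3 to 123. In both, as in Kcnd3, the value was higher at each stage than at the one before, and relative changes were 1.89 for Kcne2, 1.72 for Kcnip2 and 1.64 for Kcnd3. Their H3K4me2 was not called, with 12, 10, 5 and 22 for Kcne2 and 31, 22, 22 and 29 for Kcnip2.
Kcnab2 and Kcnab3 encode cytoplasmic beta subunits of Kv1 channels and were called lower in H3K27me3, with 22, 20, 9 and 8 and 32, 39, 17 and 5. The Kcnab2 intervals overlapped, and those of Kcnab3 (21.9 to 45.2 and 1.62 to 11.7) did not. Their H3K4me2 at PN15, 117 and 99, was among the 6 highest of the members. In the mm9 annotation, other protein-coding start sites lie within 2.5 kb of both, Nphp4 271 bases from Kcnab2 and Trappc1 (2101 bases) and Cntrob near Kcnab3, and reads of these neighbours cannot be told apart. Apart from Kcnu1, no other of the 87 members found in that annotation had such a neighbour. Distances are from the nearest annotated start of each member, which need not be the start used for the deposited values. Kcne1 and Kcnip4 fell in H3K4me2. Kcne1, the partner of Kcnq1, had 24, 12, 3 and 5 and Kcnip4 had 33, 9, 4 and 11, with intervals apart for both. Kcne3, a partner of Kcnq1 in epithelia, fell in H3K27me3, with 305, 342, 262 and 107.

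Some members have several start sites in the table, and the marks there could differ. Of 16 members with more than 1 entry, 8 had identical values at all of them and 3 differed at least 2-fold in a mark at E17.5 or PN15 (Kcnip3, Kcnj6 and Kcnd3). Kcnip3, known as calsenilin or DREAM, encodes a calcium sensor that binds Kv4 channels and also acts as a repressor of transcription. One entry had H3K27me3 of 533, 540, 380 and 195, the highest of any member at E17.5, and H3K4me2 of 28, 23, 19 and 14. The other had 19, 12, 13 and 19 for H3K27me3 and 47, 33, 24 and 22 for H3K4me2. The high entry was thus one of the most H3K27me3-rich of the members while the second stayed below the limit at each stage. Kcnj6 had 4 entries with 2 distinct sets of values. One set had H3K27me3 of 160, 161, 132 and 47 and the other 7, 7, 10 and 10, with H3K4me2 of 27, 22, 24 and 35 in the first and 10, 5, 0 and 1 in the second. For Kcnd3, H3K27me3 was 23, 39, 55 and 74 at one and 7, 11, 15 and 34 at the other, higher at each stage than at the one before in both.
RefSeq has 3 Kcnip3 promoters and 2 Kcnj6 promoters that were found once in mm9. The deposited table names no transcript, so which entry belongs to which promoter is not stated. The Kcnip3 promoters lie at chr2:127308186-127308485 (minus strand), chr2:127347079-127347378 (minus strand) and chr2:127347781-127348080 (minus strand). The first is 38893 bases from the second and 39595 from the third. The first 2 are shown, as are both of Kcnj6, at chr16:95078248-95078547 (minus strand) and chr16:95219254-95219553 (minus strand), since they show how unlike the start sites of 1 gene are in CpG (capitals). Promoters are numbered by rising coordinate, so on the minus strand the first of each gene lies downstream of the others.
Kcnip3, first: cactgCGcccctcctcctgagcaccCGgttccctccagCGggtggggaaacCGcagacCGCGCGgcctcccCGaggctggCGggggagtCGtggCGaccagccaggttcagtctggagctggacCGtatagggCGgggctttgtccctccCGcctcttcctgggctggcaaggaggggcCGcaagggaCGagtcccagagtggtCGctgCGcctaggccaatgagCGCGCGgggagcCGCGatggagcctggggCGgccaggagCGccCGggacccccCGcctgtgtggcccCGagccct
Kcnip3, second: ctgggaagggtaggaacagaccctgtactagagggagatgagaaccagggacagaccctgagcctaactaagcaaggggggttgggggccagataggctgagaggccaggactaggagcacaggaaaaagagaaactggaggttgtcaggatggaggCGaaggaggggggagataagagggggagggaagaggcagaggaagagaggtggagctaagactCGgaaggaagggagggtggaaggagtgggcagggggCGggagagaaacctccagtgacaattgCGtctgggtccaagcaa
Kcnj6, first: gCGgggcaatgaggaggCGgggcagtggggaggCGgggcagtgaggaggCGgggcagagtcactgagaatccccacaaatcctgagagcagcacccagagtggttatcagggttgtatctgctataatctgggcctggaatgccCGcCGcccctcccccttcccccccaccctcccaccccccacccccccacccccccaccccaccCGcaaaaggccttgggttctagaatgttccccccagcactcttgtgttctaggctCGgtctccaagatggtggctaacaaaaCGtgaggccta
Kcnj6, second: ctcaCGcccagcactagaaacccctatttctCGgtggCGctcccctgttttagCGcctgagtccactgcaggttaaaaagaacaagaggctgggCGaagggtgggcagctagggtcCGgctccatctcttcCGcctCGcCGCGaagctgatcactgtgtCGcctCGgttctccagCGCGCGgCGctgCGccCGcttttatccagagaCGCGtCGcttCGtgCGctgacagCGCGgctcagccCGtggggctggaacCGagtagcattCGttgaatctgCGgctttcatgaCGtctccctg
They hold 28 and 4 CpG at Kcnip3 and 9 and 30 at Kcnj6. The third Kcnip3 promoter, not shown, holds 8.

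**Figure D4:**
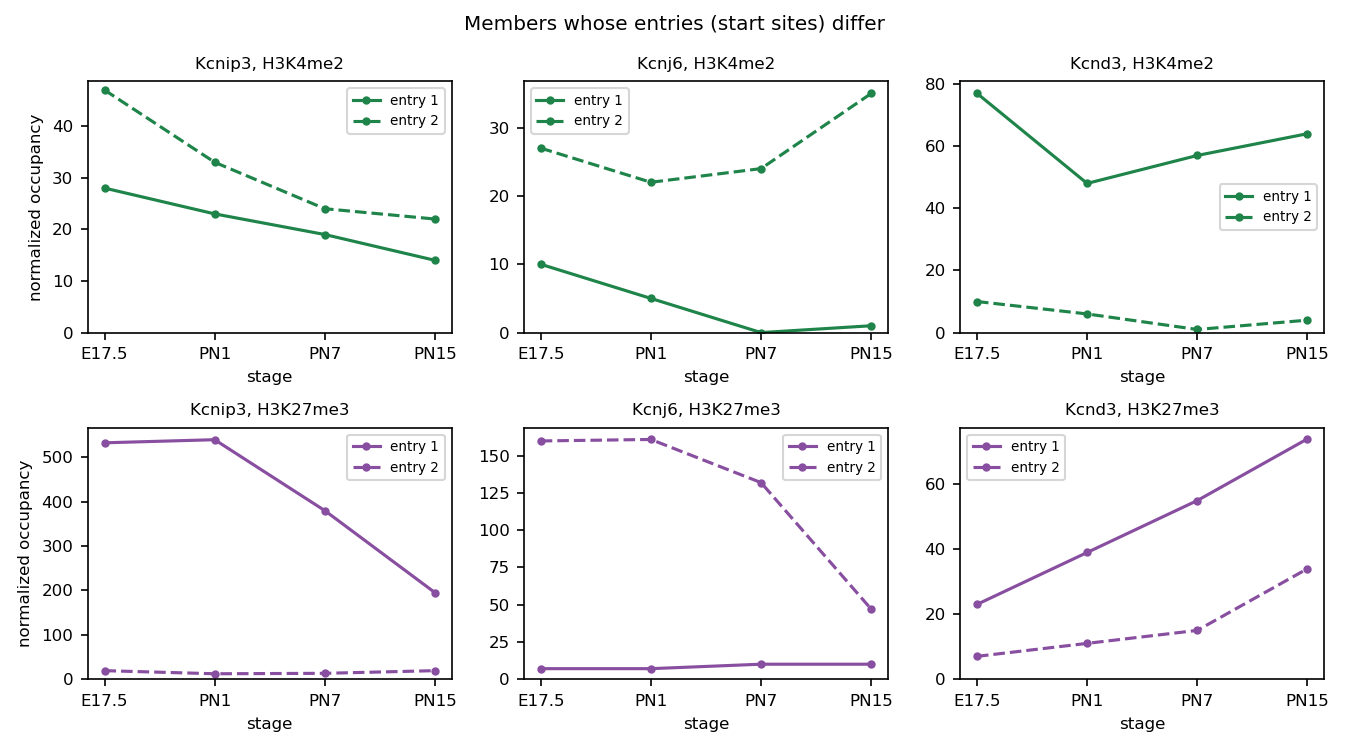
Normalized occupancy of H3K4me2 (top) and H3K27me3 (bottom) by stage at the 2 distinct entries of Kcnip3, Kcnj6 and Kcnd3, 1 library per point. In Kcnip3 and Kcnj6 only 1 entry had H3K27me3 above 27 at any stage, and in Kcnd3 H3K27me3 increased with stage at both.

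Most calls of lower H3K27me3 came at the last step, into the PN15 library that stood apart. The part of that library in these calls was not tested. From E17.5 to PN1 no member was called lower in H3K27me3 (0.284% of all symbols were) and 1 was called higher (0.803%). From PN1 to PN7, 3 members (3.37%) were lower, against 2.2% of all symbols, Kcnc1 and Kcnn4 among them, and 6 (6.74%) were higher, against 2.41%, namely Kcna3, Kcnc2, Kcnd2, Kcnip2, Kcnk2 and Kcnmb4. From PN7 to PN15, 25 members (28.1%) were lower, against 5.71%, and none was higher (1.41%). Among symbols averaging at least 50 over these stages, 43.8% of 48 members and 28.9% of 2560 symbols were at least 2-fold lower, with median relative changes of -0.84 and -0.74. Kcnc1 was called lower in both of the last steps. Of the 89 members, 38 (42.7%) had their highest H3K27me3 at PN1, against 28.9% of all symbols.
H3K4me2 was lower in 5 members (5.62%, against 0.728% of all symbols) and higher in 2 (2.25%, against 2.4%) at PN1 than at E17.5. The 5 were Kcnip4, Kcnj13, Kcnj14, Kcnk9 and Kcnmb4, the neuronal beta subunit of the BK channel, whose H3K4me2 was 77, 26, 51 and 78 and thus dipped at PN1, and the 2 were Kcne4 and Kcnk15. The intervals at E17.5 and PN1 were apart for Kcnip4 and Kcnmb4 and overlapped for the other 5. From PN1 to PN7, 32 members (36.0%) were higher relative to all symbols, against 13.6%, and 2 were lower (2.25%, against 6.11%). From PN7 to PN15, 31 (34.8%) were lower, against 13.6%, and 4 were higher (4.49%, against 6.39%). Both counts rest on the PN7 library that stood apart. Among symbols averaging at least 50 over PN1 and PN7, the median relative change was 0.75 over 3358 symbols and 1.05 over 17 members. Over PN7 and PN15 the same medians were -0.10 over 7217 symbols and -0.99 over 26 members. The raw H3K4me2 of Kcna2 was 44, 89 and 41 at PN1, PN7 and PN15, and that of Kcnma1 was 27, 64 and 37. At PN7, 12 members (13.5%) had their highest H3K4me2, against 5.48% of all symbols.

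The marks moved largely apart from each other. Across the 89 members the changes from E17.5 to PN15 in H3K4me2 and H3K27me3 had a Spearman rho of -0.14, against -0.11 across all 20045 symbols, values across genes that share the same 4 libraries. Higher H3K4me2 with lower H3K27me3 was called in 4 members, Kcnc1 and Kcnk3 among them (4.49%, against 0.713% of all symbols). The reverse pair of calls was found in Kcnc2 alone (1.12%, against 0.713%). Both marks were called lower in Kcnip3 and Kcnq1 (2.25%, against 1.24%), with overlapping H3K4me2 intervals in each, and both higher in none (0.0399%). Of the 27 members lower in H3K27me3, 21 thus had no call in H3K4me2, and of the 7 higher in H3K4me2, Kcnj14, Kcnv2 and Kcnj1 had no call in H3K27me3.

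**Figure D5:**
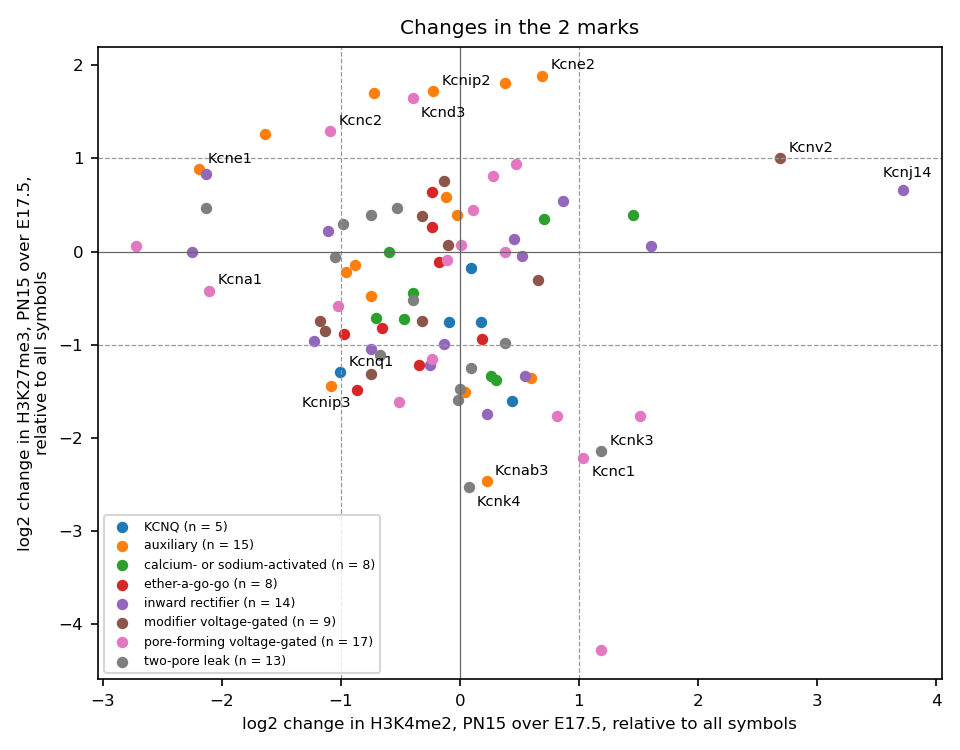
Relative log2 change from E17.5 to PN15 in H3K4me2 (x axis) and H3K27me3 (y axis) for the 89 members, coloured by group, with dashed lines at 2-fold. Kcnc1 and Kcnk3 lie at the lower right, Kcnv2 and Kcnj14 at the far right and Kcnc2 at the upper left. Points past a line whose larger value was below the background limit, such as Kcnip4 in H3K27me3, were not called.

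In 4 members neither mark was above its limit at any stage (4.49%, against 17.7% of all symbols). They are Kcnb2, Kcnj12, Kcnj16 and Kcnu1. Kcnb2 (Kv2.2), a delayed rectifier, had H3K4me2 of 2, 7, 0 and 3 and H3K27me3 of 3, 3, 10 and 6, and Kcnj16 (Kir5.1), a partner of Kcnj10 in glia and kidney, had 1, 4, 0 and 2 and 9, 4, 6 and 10. The interval of a value of 0 reached 3.69, so H3K4me2 below that level could not have been seen. H3K27me3 alone was present at all 4 stages in Kcnj15 and Kcnk18, whose values of 21, 27, 36 and 31 and 20, 21, 22 and 28 were above the limit at each stage, with H3K4me2 between 0 and 5. Kcnk18 was at most 2 units above it, and with limits at percentile 99 neither gene passed at any stage. Kcna4, Kcna10, Kcnab1, Kcng1, Kcnh5, Kcnh6, Kcnh8, Kcnip1, Kcnj4, Kcnk5, Kcnk7, Kcnmb1, Kcnmb2, Kcnn3 and Kcns2, like Kcna3, Kcne4 and Kcnmb4, had no call in either mark between E17.5 and PN15. Of these, Kcnip1 in H3K4me2 (-0.95) and Kcna3 (0.94), Kcnh6 (-0.94) and Kcnj4 (-0.99) in H3K27me3 were within 0.1 of the 2-fold limit on the log2 scale, as were Kcnh1 (-0.97) and Kcnk1 (-0.98) in H3K4me2 and Kcnj8 (-0.96) and Kcnk15 (-0.98) in H3K27me3. Kcnmb1 in H3K27me3 (7, 11, 15 and 27) changed by 1.81 with intervals apart, but 27 only equals its PN15 limit. Kcna10 in H3K4me2 (5, 5, 1 and 0) changed by -2.72 with overlapping intervals, and 5 only equals its E17.5 limit.

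Other genes of the pathway were read from 2 lists. Of 17 partners of potassium channels, 3 were called higher and 2 lower in H3K4me2 between E17.5 and PN15, and 1 was higher and 7 lower in H3K27me3, with medians of 0.06 and -0.86. The shares of all symbols for these calls, and for those of the second list, were 3.26% and 8.03% in H3K4me2 and 3.08% and 8.96% in H3K27me3. Among them Abcc8, the sulfonylurea receptor that surrounds the Kcnj11 pore, was higher in H3K4me2 (11, 13, 14 and 26) and lower in H3K27me3 (285, 241, 178 and 72). Dpp6 and Dpp10, which set the speed of Kv4 channels, were both lower in H3K27me3, with 164 and 75 for Dpp6 and 194 and 90 for Dpp10 at E17.5 and PN15. Of 20 pore subunits of calcium and sodium channels, 4 were higher and 2 lower in H3K4me2, and 2 higher and 5 lower in H3K27me3, with medians of -0.29 and -0.32. Cacna1f, the calcium channel of the photoreceptor synapse, had H3K4me2 of 29, 19, 10 and 73 and H3K27me3 of 26, 52, 18 and 12, called higher and lower. Cacna1h, a T-type channel, was called lower in H3K4me2 (71, 51, 96 and 24) and higher in H3K27me3 (20, 18, 39 and 138), the direction of Kcnc2 among the potassium channels.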

How the data were processed

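Per the submitters' processing notes and the study's methods, Bowtie 0.12.4 aligned the reads to mm9. The authors removed reads with several positions, and assigned midpoints for fragments of 190 bp. The deposited values are a score per library, namely reads within 2.5 kb of each RefSeq TSS normalized to total mapped reads (normalized occupancy) and rounded by the authors to whole numbers. Tests made for counts therefore do not apply, and the depth of the libraries is not in the table. The mark and stage of each column were taken from the sample titles. The catalogue numbers of the antibodies stand the other way round in the labels and in the study's methods, which leaves the mark resting on these titles and the column names. The PN7 column of H3K27me3 carries a letter b after the mark.

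The entry with the largest sum over 8 columns represented each symbol. Changes are log2 ratios with a pseudocount of 1, minus the median of all 20045 symbols. A call required a 2-fold relative change and a larger value above percentile 95 of 1345 olfactory and vomeronasal receptor symbols. With 1 library per mark and stage no test was run and no p-value is given. The gene lists, the members and the call rule were chosen with earlier results of these data known. Members were named by call, by the highest values, for a known role, for lack of both marks, or for unlike entries, and others to complete a group after their values were seen. Alternatives were another pseudocount, no centring, other background limits, non-overlapping intervals and the mean over entries. Positions are from GENCODE M1 (mm9). Promoters are from RefSeq and were placed in mm9 by exact match. A few genes are counted in the totals but not reported here by name. The steps were tested on simulated data. Python 3.11.15, numpy 2.4.6, pandas 2.3.3, scipy 1.17.1 and matplotlib 3.10.9 were used.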

Additional observations from a re-analysis of the deposited data

How the results depend on the processing

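No paired analysis was possible because each mark and stage has 1 library and the labels give no replicate numbers. The count of members lower in H3K4me2 at PN15 than at E17.5 (13) was 8 with a pseudocount of 5, 7 without centring and 7 where the intervals had to be apart. That of members higher in H3K27me3 (4) was 8 without a background limit. The counts of 7 higher in H3K4me2 and 27 lower in H3K27me3 stayed within 1.5 times under all alternatives tried.

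With a pseudocount of 5, the median H3K4me2 change from PN7 to PN15 (-0.72) was -0.415. That from PN1 to PN7 (0.62) was 0.31 among symbols averaging at least 50, an alternative chosen after seeing the data. In H3K27me3 the same alternative gave -0.0599 from E17.5 to PN1 (0.16), 0.0366 from PN1 to PN7 (-0.01) and -0.10 from PN7 to PN15 (-0.57). From E17.5 to PN15 it gave -0.11 (-0.42). With symbols averaging above the background limit, the H3K27me3 changes were -0.0213 from E17.5 to PN1, -0.29 from PN7 to PN15 and -0.28 from E17.5 to PN15. Changes among fewer symbols are relative to the median of the symbols kept.

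With limits at percentile 99, members with H3K4me2 only numbered 27 at E17.5 (14), 23 at PN1 (12) and 24 at PN7 (15), those with neither mark 13 at E17.5 (7) and 17 at PN1 (10), and those with H3K27me3 only 1, 2, 0 and 2 at the 4 stages (5, 5, 2 and 4). With limits from taste receptors and defensins, H3K4me2 only was 6 at PN1, and H3K27me3 only was 10 at PN1 and 1 at PN7. With the mean over entries, H3K27me3 only was 2 at E17.5. Counts with both marks stayed within 1.5 times under these 3 alternatives.

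Calls near the limit are the least firm. Kcnj1, Kcng3, Kcnip3, Kcnk10 and Kcnq1 in H3K4me2 lost their call both with a pseudocount of 5 and where intervals had to be apart. Kcnc1 (0.94) lost its H3K4me2 call with a pseudocount of 5, and Kcnc2 (-0.96), Kcnj3 (-0.97) and Kcna2 (-0.89) lost theirs without centring. Depth limits values under about 10, and differences between stages cannot be told apart from differences between libraries.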
